A study of Mus musculus with 4 samples.

Results

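Antigen presentation genes were described in single cells of mouse bone and bone marrow. The genes were 5 of the class I pathway (H2-K1, H2-D1, B2m, Tap1 and Psmb8) and 5 of the class II pathway (H2-Aa, H2-Ab1, H2-Eb1, Cd74 and Ciita), found by symbol in the gene list of each library, 10 of 32285 genes in all. The cells came from femur and tibia of untreated INK-ATTAC mice, a line that carries an inducible caspase 8 transgene driven by a fragment of the p16 promoter. There was 1 young mouse of 6 months and 1 old mouse of 24 months, so that a difference between the ages cannot be told apart from a difference between 2 animals or 2 libraries. Per the labels, cells with blood lineage markers were depleted and live CD45- cells were sorted, which sets how many blood cells remain. The measurement was 3′ single-cell RNA sequencing with a CD24 antibody tag (CITE-seq), and values are unique molecular identifiers (UMIs), each of which counts 1 captured mRNA molecule.

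Class I molecules consist of a heavy chain and beta-2 microglobulin and show peptides from inside the cell to CD8 T cells and natural killer cells. Nearly every nucleated cell makes them, and interferons raise them. Class II molecules consist of an alpha and a beta chain, show peptides from taken-up material to CD4 T cells, and are known mainly from B cells, macrophages and dendritic cells, in which Ciita switches on their genes together. Among the genes described, H2-K1 and H2-D1 encode classical class I heavy chains and B2m their shared light chain. Tap1 encodes a subunit of the transporter that carries peptides into the endoplasmic reticulum, and Psmb8 a catalytic subunit of the immunoproteasome that cuts them. H2-Aa and H2-Ab1 encode the chains of I-A, H2-Eb1 the beta chain of I-E, Cd74 the invariant chain that guards the peptide groove, and Ciita the class II transactivator.

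On the mouse genome GRCm38, 7 of the 10 genes lie on chromosome 17, in the major histocompatibility complex. The H2-K1 gene spans 17:33996012-34000619, Tap1 17:34187556-34197225, Psmb8 17:34198195-34201454, H2-Ab1 17:34263227-34269418, H2-Aa 17:34282744-34287823, H2-Eb1 17:34305867-34316674 and H2-D1 17:35263094-35267497. B2m spans 2:122147687-122153082 and Ciita 16:10480014-10531064. H2-K1 and H2-D1 resemble each other and the other class I heavy chain genes closely, so the split of UMIs between them is uncertain.

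Promoters are shown for H2-K1, H2-D1 and B2m of class I and for H2-Aa and H2-Eb1 of class II. Across cell groups the 3 class I genes correlated with r = 0.79 to 0.85 and the 2 class II genes with 0.94. Between the classes r was 0.23 to 0.58. A link of motifs to these levels was not tested. RefSeq promoters on GRCm38.p6, with 250 bases before and 50 after the listed start, were found for 7 of the 10 genes, all but H2-Ab1, Cd74 and Ciita. They were searched on both strands for 4 motifs: CCAAT (letters bound by nuclear factor Y), TGACG (core of the site for CREB and ATF proteins), AGCAAC (part of the X box) and the interferon-stimulated response element (2 GAAA repeats with any 2 bases between them). CCAAT was found in 6 of the 7 promoters and in 37.4% of the 32851 listed promoters of this length. TGACG was found in 5 of the 7 and in 20.8% of all. The interferon element was found in 1 (B2m; 3.44% of all) and AGCAAC in 1 (H2-Eb1; 14.8% of all), and the promoter of Psmb8 held none of these. The printed promoters are those of H2-K1 (17:34000298-34000597, minus strand, 1 of 2 listed), H2-D1 (17:35262844-35263143, plus), B2m (2:122147437-122147736, plus), H2-Aa (17:34287774-34288073, minus) and H2-Eb1 (17:34305617-34305916, plus), each 5′ to 3′ with motif matches in capitals; ATTGG and CGTCA are CCAAT and TGACG on the other strand, and in H2-Aa the matches of TGACG on both strands overlap.
H2-K1: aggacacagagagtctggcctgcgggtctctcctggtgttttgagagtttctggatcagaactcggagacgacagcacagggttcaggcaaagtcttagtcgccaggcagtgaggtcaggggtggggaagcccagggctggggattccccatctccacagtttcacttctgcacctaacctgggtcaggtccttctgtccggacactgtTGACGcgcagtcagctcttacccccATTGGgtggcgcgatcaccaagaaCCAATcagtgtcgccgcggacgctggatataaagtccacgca
H2-D1: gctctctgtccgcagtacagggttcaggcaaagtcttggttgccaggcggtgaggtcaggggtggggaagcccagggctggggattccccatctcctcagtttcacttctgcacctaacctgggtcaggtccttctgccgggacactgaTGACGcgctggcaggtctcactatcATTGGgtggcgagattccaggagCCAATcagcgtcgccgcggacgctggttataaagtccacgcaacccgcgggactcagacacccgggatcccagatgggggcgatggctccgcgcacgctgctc
B2m: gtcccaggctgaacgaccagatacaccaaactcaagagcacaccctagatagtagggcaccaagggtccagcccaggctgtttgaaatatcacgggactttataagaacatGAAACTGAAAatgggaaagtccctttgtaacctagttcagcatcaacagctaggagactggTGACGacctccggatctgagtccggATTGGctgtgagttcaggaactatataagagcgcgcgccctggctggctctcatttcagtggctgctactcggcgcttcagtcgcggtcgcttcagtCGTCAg
H2-Aa: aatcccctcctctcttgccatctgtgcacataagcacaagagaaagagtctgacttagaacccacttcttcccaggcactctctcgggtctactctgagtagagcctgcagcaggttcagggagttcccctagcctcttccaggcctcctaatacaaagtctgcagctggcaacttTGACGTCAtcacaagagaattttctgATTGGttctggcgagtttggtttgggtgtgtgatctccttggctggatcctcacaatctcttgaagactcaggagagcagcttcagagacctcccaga
H2-Eb1: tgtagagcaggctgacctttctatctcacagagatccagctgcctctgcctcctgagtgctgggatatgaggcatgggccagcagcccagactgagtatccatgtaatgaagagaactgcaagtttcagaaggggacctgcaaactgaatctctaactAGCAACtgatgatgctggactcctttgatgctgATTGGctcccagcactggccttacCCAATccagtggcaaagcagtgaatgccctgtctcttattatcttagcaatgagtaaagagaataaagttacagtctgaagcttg
Within these letters, H2-K1 and H2-D1 each held a TGACG upstream of an ATTGG and a CCAAT. B2m held 1 match of the 2 GAAA repeats upstream of TGACG and ATTGG. H2-Aa held a palindromic TGACGTCA upstream of ATTGG. A match is a description of letters and not a measured binding site.

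After the study's limits of at least 200 genes and at most 20% mitochondrial UMIs, 10063 young and 5607 old cells remained, with a median of 6385 and 9711 UMIs per cell. Cells were grouped by how many genes of fixed marker lists they held, none of which is a gene described here. This gave 8019 young and 4192 old mesenchymal cells, among them marrow stroma (2785 and 1793 cells; markers such as Lepr, Cxcl12 and Adipoq), fibroblasts (2673 and 1179), osteoblasts (810 and 468), tendon cells (214 and 122) and chondrocytes (162 and 84). The blood groups were B lineage (352 and 48), erythroid cells (431 and 360), granulocytes (115 and 265), megakaryocytes (65 and 42) and progenitors (72 and 24; Kit, Myb and Gata2 among the markers). Their names mean likeness by markers. Cells that passed the minimum both for mesenchyme and for a blood, endothelial, Schwann or muscle list (251 and 220) and without enough markers (741 and 428) were set aside, and 19 cell barcodes occurred in both libraries. Levels are UMIs per 1000000 UMIs of the summed cells of a group (CPM). Each interval is an exact 95% interval and covers no more than counting error.

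Marrow stroma carried the most H2-K1, H2-D1 and B2m mRNA of the groups, while Tap1 and Psmb8 were higher still in B-lineage cells and progenitors. H2-K1 stood at 3149 CPM in stroma of the young mouse (interval 3123 to 3175; 56767 UMIs) and at 2708 in that of the old (2683 to 2733; 44283 UMIs). In no other group of at least 20 cells in each mouse did H2-K1 pass the 696 CPM of young B-lineage cells. H2-D1 stood at 4918 and 4412 CPM in stroma, B2m at 2601 and 2400, Psmb8 at 214 and 215, and Tap1 at 44.7 and 58.2. For each of the 5 genes both stroma values lay above those of the other mesenchymal groups compared. How many of all genes separated stroma in this way was not counted.

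**Figure D1:**
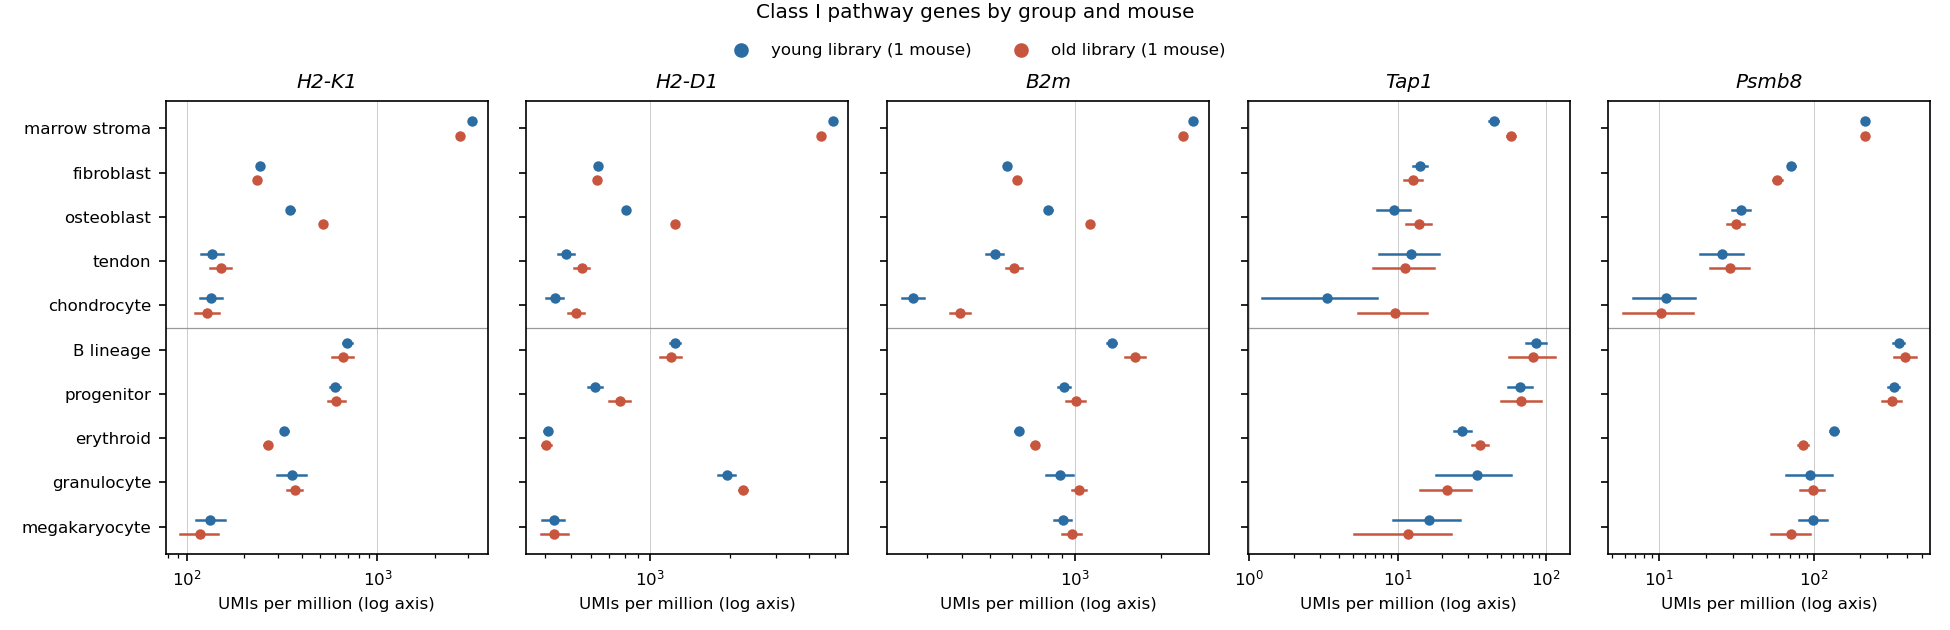
CPM (log axis) of the 5 class I pathway genes in 5 mesenchymal and 5 blood groups; points are the young (blue) and the old (red) mouse and bars the 95% counting interval. Marrow stroma is highest for H2-K1, H2-D1 and B2m, with H2-K1 at 3149 and 2708 CPM, while Tap1 and Psmb8 are highest in B-lineage cells and progenitors.

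Each mesenchymal group was tested against the mean of the other 4 with edgeR's quasi-likelihood test on sums per mouse, with the mouse as a block and Benjamini-Hochberg adjustment over 13922 genes. In stroma 8 of the 10 genes were higher and none lower, and the other 2 had too few UMIs to be tested. Of all genes tested, 49.8% were called in this comparison and 25.9% were higher. The log2 difference of H2-K1 was 3.57 (SE 0.14, adjusted p = 1.03e-07), that of H2-D1 2.66 (0.14), B2m 1.91 (0.13), Psmb8 2.70 (0.095, adjusted p = 5.8e-08) and Tap1 2.06 (0.17, adjusted p = 9.03e-06). Stroma gave 29.9% of all young mesenchymal UMIs and 33.6% of the old. It gave 84.4% and 81.9% of the mesenchymal H2-K1 UMIs, 76.2% and 73.8% of those of H2-D1, and 64.8% and 62.0% of those of B2m.

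The level was shared by most stroma cells. Among cells with at least 2000 UMIs, the median stroma cell held 32.3 H2-K1 UMIs per 10000 (young mouse) and 26.6 (old mouse). The 5th percentile was 7.16 and 4.82, while the 95th percentile of fibroblasts was 7.18 in either mouse. That of osteoblasts was 14.7 (young) and 19.7 (old), so single cells of stroma and osteoblasts overlapped. When mesenchymal cells were ordered by the number of the 8 stroma markers they held, H2-K1 in the young mouse stayed between 201 and 290 CPM from 0 to 4 markers. It then stood at 658 with 5, 1754 with 6, 3114 with 7 and 3318 with all 8. In the old mouse the values were 223 to 376 CPM up to 4 markers, 504 with 5, 1013 with 6, 2589 with 7 and 2889 with 8. H2-D1 and B2m followed the same course, so the rise was steepest where the stroma list was nearly complete.

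**Figure D2:**
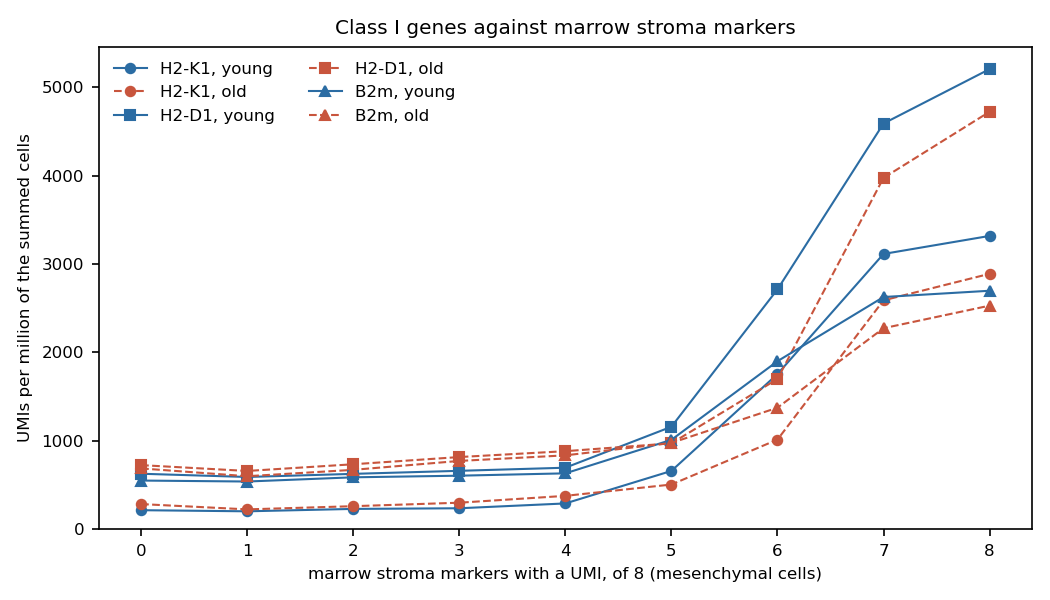
CPM of H2-K1, H2-D1 and B2m in summed mesenchymal cells with 0 to 8 stroma markers, in the young (solid) and old (dashed) mouse. H2-K1 lies between 201 and 290 CPM (young) and between 223 and 376 CPM (old) up to 4 markers, and reaches 3318 and 2889 CPM with all 8.

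Outside stroma the mesenchymal groups differed less, and not for all class I genes in the same way. Chondrocytes had all 5 class I genes lower (19.3% of all genes called, 7.88% lower), although the call of Tap1, with 6 and 15 UMIs, was lost with 1 marker more and in thinned cells. Their H2-K1 level was 134 and 128 CPM, and their Psmb8 level 11.1 and 10.2 CPM, from 20 and 16 UMIs. The log2 differences were −1.62 (SE 0.19) for H2-K1, −1.37 (0.16) for B2m and −2.30 (0.18) for Psmb8. Tendon cells had 4 of the 5 lower, with Tap1 at 20 and 19 UMIs not past the test (8.61% of all genes called, 6.5% higher and 2.1% lower). The tendon call of B2m was lost without the mouse block (adjusted p = 0.104), and that of Psmb8 with 1 marker more and in thinned cells. Fibroblasts had H2-K1 and H2-D1 lower by 0.72 (SE 0.17) and 0.71 (0.17) but Psmb8 higher by 0.79 (0.11, adjusted p = 0.00038), where 30.5% of all genes were called. The mean of the other 4 groups includes stroma. Fibroblast H2-K1 stood at 241 and 234 CPM, above chondrocytes and tendon cells (136 and 151 CPM) and below osteoblasts, and fibroblasts were not tested against these groups alone. In osteoblasts (23.9% of all genes called) B2m was higher by 0.47 (0.14, adjusted p = 0.0359) and Psmb8 lower by 0.39 (0.12, adjusted p = 0.04). The osteoblast B2m call was lost without the mouse block and in thinned cells, and its Psmb8 call under 4 of the alternatives. The heavy chains of osteoblasts were not past the test, H2-K1 at 350 and 517 CPM.

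Counts of genes of the wider class I pathway are to be read against 25.9% of all genes higher and 23.9% lower in stroma. Of the other class I heavy chain genes, which show peptides or lipids to specialised T and natural killer cells, 9 of the 9 tested were higher in stroma, with a median log2 difference of 2.57 against 0.02 over all genes tested. H2-Q10, which encodes a secreted heavy chain, stood at 285 and 324 CPM and was higher by 5.92 (SE 0.15). H2-Q7 stood at 375 and 326 CPM (5.27, SE 0.23) and H2-T23 at 189 and 215 CPM (1.76, SE 0.087). Reads of these near-identical genes may be split between them in ways the files do not show. Of 7 genes of peptide loading, 4 were higher and none lower, Tapbp (tapasin) by 0.88 (SE 0.14) and Tapbpl by 2.01 (0.17). Of 7 proteasome genes, 4 were higher and 2 lower. The catalytic immunoproteasome subunits Psmb9 and Psmb10 were higher by 3.15 (SE 0.12) and 1.94 (0.12) and the activator subunit Psme1 by 1.00 (0.11), whereas the standard subunit Psmb6 was lower, at −0.38 (0.095).

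Nlrc5, the class I transactivator, was higher in stroma by 4.16 (SE 0.25, adjusted p = 1.18e-06), with 23.2 and 23.8 CPM. Of the 8 regulators 2 were higher, the other being Creb1, and 1 was lower, Rfxap at −0.81 (0.13), where 25.9% of all genes were higher and 23.9% lower. Of 14 genes of interferon signalling 12 were higher and 1 lower, with a median of 1.02. They included Ifngr1 (1.17, SE 0.11) and Ifnar2 (1.43, SE 0.083), chains of the interferon receptors, and Irf8 (3.53, SE 0.18) and Irf7 (2.07, SE 0.27), transcription factors. Socs1, a feedback inhibitor and the gene that was lower, was named after its value was seen and stood at 22.4 and 27.6 CPM (−1.43, SE 0.15). Of 3 co-stimulation genes tested, Icosl (2.50, SE 0.45) and Cd274 (2.25, SE 0.41) were higher and Cd80 was lower.

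Blood groups were tested against all mesenchymal cells in the same way, over 11966 genes. Most genes were called in each comparison, 64.4% in B lineage, 76.7% in erythroid cells, 67.0% in granulocytes, 65.8% in megakaryocytes and 66.1% in progenitors. Lower genes made up 37.7%, 42.1%, 47.2%, 39.4% and 38.8% in that order, and 26.4% were higher in megakaryocytes. The mesenchymal reference held 1115 and 1110 CPM of H2-K1, and without stroma only 249 and 302 CPM, and the sign of the H2-K1 difference turned with the reference in 4 of the 5 groups. B-lineage H2-K1, at 696 and 657 CPM, was lower than in all mesenchymal cells, with a log2 difference of −0.89 (SE 0.19, adjusted p = 0.000125). Against mesenchymal cells other than stroma, a comparison chosen after seeing the data, it was higher by 1.02 (SE 0.19, adjusted p = 2.33e-05). H2-K1 of granulocytes (355 and 368 CPM) likewise went from −1.02 (SE 0.19) to 0.90 (0.19), and that of progenitors (598 and 608 CPM) from −0.91 (0.18) to 1.00 (0.19). Megakaryocytes had less H2-K1 under either reference, 133 and 117 CPM, with −2.81 (SE 0.21) against all mesenchymal cells and −0.90 (0.20) against those other than stroma. Erythroid cells, at 325 and 265 CPM, were lower against all (−1.75, SE 0.18) but not past the test against the rest (0.16, SE 0.18, adjusted p = 0.44). Erythroid Tap1 (27.3 and 35.9 CPM) was higher by 0.52 (SE 0.20, adjusted p = 0.0191), a call that was lost with DESeq2 (0.213) and that turned to −0.33 in thinned cells.

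Peptide supply genes did not depend on the reference in this way for B lineage and progenitors. Psmb8 stood at 354 and 391 CPM in B lineage and at 329 and 319 CPM in progenitors, above the 214 and 215 CPM of stroma. Against all mesenchymal cells it was higher by 1.69 (SE 0.20, adjusted p = 1.45e-08) in B lineage and by 1.65 (0.20, adjusted p = 1.95e-08) in progenitors. Tap1 was higher by 1.64 (SE 0.22) and 1.44 (0.23), with 86.4 and 81.9 CPM in B lineage and 67.1 and 68.3 CPM in progenitors. The progenitor call of Tap1 was lost in thinned cells, in which 1.14 remained (adjusted p = 0.069). B2m of B lineage (1342 and 1622 CPM) was not past the test against all mesenchymal cells (0.068, SE 0.19, adjusted p = 0.77). Granulocytes held most H2-D1 among blood groups, 1946 and 2243 CPM, higher by 0.68 (SE 0.20, adjusted p = 0.00357), where TMM scaling raised every gene of the group by 0.58 (log2) relative to plain CPM. The 8 stroma markers summed to 2629 and 2332 CPM in granulocytes, against 37979 and 33604 CPM in stroma and 48.7 to 167 CPM in the other blood groups, and their part in the granulocyte class I values was not tested. The same shift was 0.33 in megakaryocytes, 0.17 in erythroid cells, −0.17 in B lineage and −0.24 in the test of stroma.

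Among the groups compared, the B lineage held the highest CPM of H2-Aa, H2-Ab1, H2-Eb1 and Cd74 in both mice. Its H2-Aa level was 173 CPM in the young mouse (333 UMIs) and 120 in the old (47 UMIs, 18 of them in 1 cell), against 0.76 and 0.66 CPM in mesenchymal cells. H2-Ab1 stood at 273 and 136 CPM (525 and 53 UMIs) and H2-Eb1 at 70.2 and 58.8 CPM (135 and 23 UMIs). Cd74 stood at 238 and 212 CPM, from 457 and 83 UMIs, and 55 of the 83 old UMIs came from 1 cell. Ciita, the regulator, gave 30 UMIs in young B-lineage cells and 1 in old ones, against 7 and 0 in all mesenchymal cells, and had too few UMIs to be tested. All 4 class II genes tested were higher in B lineage than in mesenchymal cells, where 26.7% of all genes were higher: H2-Aa by 7.49 (SE 0.33, adjusted p = 8.42e-18), Cd74 by 7.06 (0.30), H2-Ab1 by 5.34 (0.41) and H2-Eb1 by 3.86 (0.32, adjusted p = 1.15e-11).

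**Figure D3:**
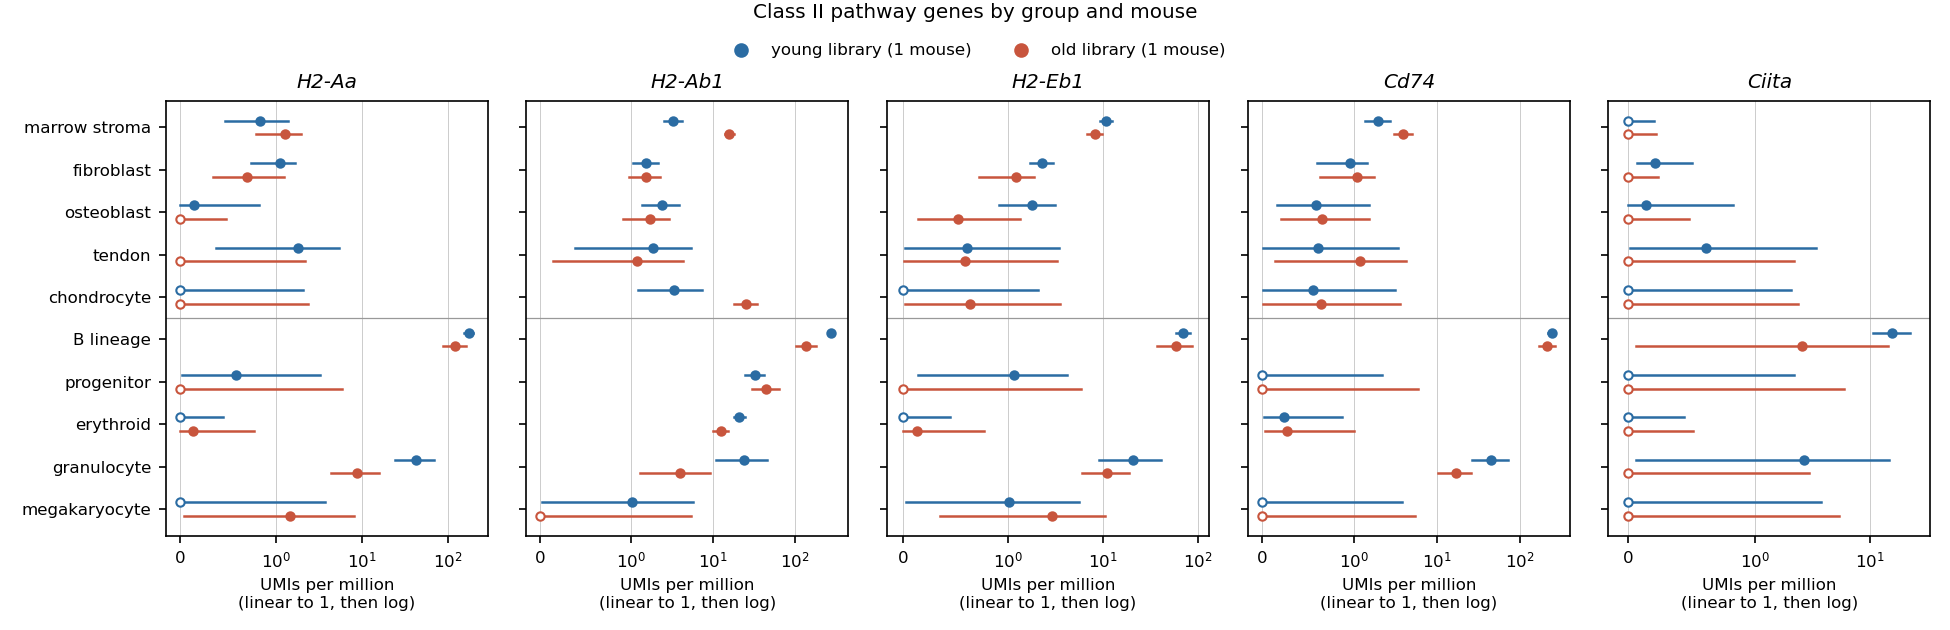
CPM of the 5 class II pathway genes in the same groups (axis linear up to 1 and logarithmic above); points are the young (blue) and the old (red) mouse, open where no UMI was found, with 95% counting intervals. B-lineage cells are highest for all 5 genes in the young mouse, and H2-Ab1 also lies between 12.4 and 44.5 CPM in progenitors, erythroid cells, young granulocytes (9 UMIs), old chondrocytes and old stroma.

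Within the B lineage, class II differed with the number of early B markers. Cells with at least 3 early B markers such as Igll1, Vpreb1 and Rag1, which mark pro-B and pre-B cells, held a class II UMI in 61 of 117 young cells (52.1%, interval 42.7 to 61.5) and 16 of 32 old cells (interval 31.9 to 68.1%). The other B-lineage cells did so in 194 of 235 (82.6%, 77.1 to 87.2) and 14 of 16 cells (87.5%, 61.7 to 98.4). Of late B markers such as Ms4a1 and Ighd, these other cells held a median of 0 (young) and 1 (old), so a later stage was not shown. Median depths of early and other cells were 4682 and 4379 UMIs in the young mouse and 6975 and 7765 in the old. Cd74 stood at 45.6 against 348 CPM in the young mouse and 63.1 against 543 in the old, where 1 cell gave 55 of the 66 Cd74 UMIs of the other cells. H2-Ab1 stood at 194 against 319 and 104 against 206. H2-K1 was not higher in the other cells, with 724 against 679 CPM and 735 against 485.

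Counts of genes that go with class II or class I are to be read against 26.7% of all genes higher and 37.7% lower in B lineage. Of 8 genes tested for peptide exchange and processing, 5 were higher in B lineage and 2 lower, with a median of 3.83 against −0.25 over all genes. H2-Ob and H2-Oa, the chains of the H2-O modulator, gave 113 and 16 UMIs and 12 and 5 UMIs in B lineage. H2-Ob was at most 2 UMIs in either stroma sum, and H2-Oa was at 0 there. The lysosomal thiol reductase Ifi30 and the protease Lgmn were lower, at −1.06 (SE 0.27) and −1.76 (0.26). Of the 8 regulators 6 were higher, Nfyb by 1.90 (SE 0.23), Nfya by 1.46 (0.23) and Rfxap by 1.25 (0.25), subunits of the factors that bind class II promoters. Of 7 proteasome genes 6 were higher, Psmb9 by 2.10 (SE 0.18). Of 7 loading genes 1 was higher and 4 lower, the chaperones Calr (−1.67, SE 0.19) and Pdia3 (−1.64, SE 0.19) among them. Of 10 other heavy chains tested 2 were higher and 2 lower. Of 14 interferon signalling genes 2 were higher, Irf8 by 2.92 (SE 0.28), and 8 lower, and of 2 co-stimulation genes 1 was lower.

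How often a cell held a class II UMI, and which gene supplied it, differed between groups. One was found in 72.4% of young and 62.5% of old B-lineage cells, and after thinning to 2000 UMIs in 58.3% and 37.8%. In fibroblasts, which served as the group that should lack class II, the shares were 3.52% and 4.92% at a median of 7765 and 12509 UMIs per cell, and 1.06% and 0.685% after thinning. Stroma stood above that, at 8.37% (7.36 to 9.46) and 16.4% (14.7 to 18.2) with a lower median depth of 5697 and 8774 UMIs, and at 3.20% and 3.94% after thinning. Erythroid cells showed 24.4% and 14.7%, but 4.04% and 1.18% after thinning from a median near 15407 and 15947 UMIs. Progenitors, the deepest group with 21035 and 29200 UMIs, showed 47.2% and 79.2%, and 4.17% (3 of 72 cells) and 16.7% (4 of 24) after thinning. The order of the unthinned shares thus followed depth in part.

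In erythroid cells and progenitors the class II UMIs were almost all of H2-Ab1. Erythroid cells gave 173 and 90 UMIs of H2-Ab1, against 0 and 1 of H2-Aa, 0 and 1 of H2-Eb1, 2 and 2 of Cd74 and none of Ciita. Of the erythroid cells with a class II UMI, 103 of 105 young and 50 of 53 old cells carried H2-Ab1 alone. Progenitors gave 55 and 28 UMIs of H2-Ab1 against 1 and 0 of H2-Aa and 0 and 0 of Cd74, and 31 of 34 and 19 of 19 positive cells carried H2-Ab1 alone. In B lineage, by contrast, 153 of 255 and 19 of 30 positive cells carried at least 2 of the 4 genes. The ratio of H2-Ab1 to H2-Aa UMIs in erythroid cells therefore differed from that in B lineage, where 61.2% and 53.0% of the sum of both was H2-Ab1 against 100% and 98.9%. The B-lineage markers summed to 2.28 and 1.66 CPM in erythroid cells and to 5.25 and 9.53 CPM in progenitors, against 7004 and 7022 CPM in B lineage. At least 1 B-lineage marker UMI was found in 10.5% and 11.3% of erythroid cells with a class II UMI and in 1.84% and 0.977% of those without, and in 8.82% and 26.3% of progenitors with one and 13.2% and 0% of those without. Their part in the H2-Ab1 signal was not tested. Whether these UMIs came from H2-Ab1 mRNA or from reads of another transcript that were assigned to H2-Ab1 cannot be told apart from counts.

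H2-Ab1 was higher than in mesenchymal cells by 2.90 (SE 0.46, adjusted p = 3.14e-06) in progenitors, where 27.3% of all genes were higher, and by 1.96 (0.37, adjusted p = 2.41e-05) in erythroid cells, where 34.6% were. The erythroid call was lost with DESeq2 (adjusted p = 0.081). H2-Eb1 and Cd74 were called lower in both groups on 0 to 2 UMIs per sum, and H2-Aa in erythroid cells on 0 and 1. The progenitor call of Cd74, with no UMI in either mouse, was lost under 5 alternatives. H2-DMa, part of the peptide exchange factor H2-DM, was also present in these groups, with 148 and 117 UMIs in erythroid cells (log2 2.61, SE 0.22) and 86 and 27 in progenitors (3.88, SE 0.26). It was higher as well in B lineage (81 and 19 UMIs, 3.62, SE 0.27) and megakaryocytes (18 and 9 UMIs, 2.70, SE 0.39). H2-Oa gave 42 and 26 UMIs in erythroid cells and 24 and 8 in progenitors. H2-Ob gave 15 and 8 UMIs in erythroid cells and 16 and 4 in progenitors. H2-DMa, H2-Oa and H2-Ob were singled out here after their values were seen.

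**Figure D4:**
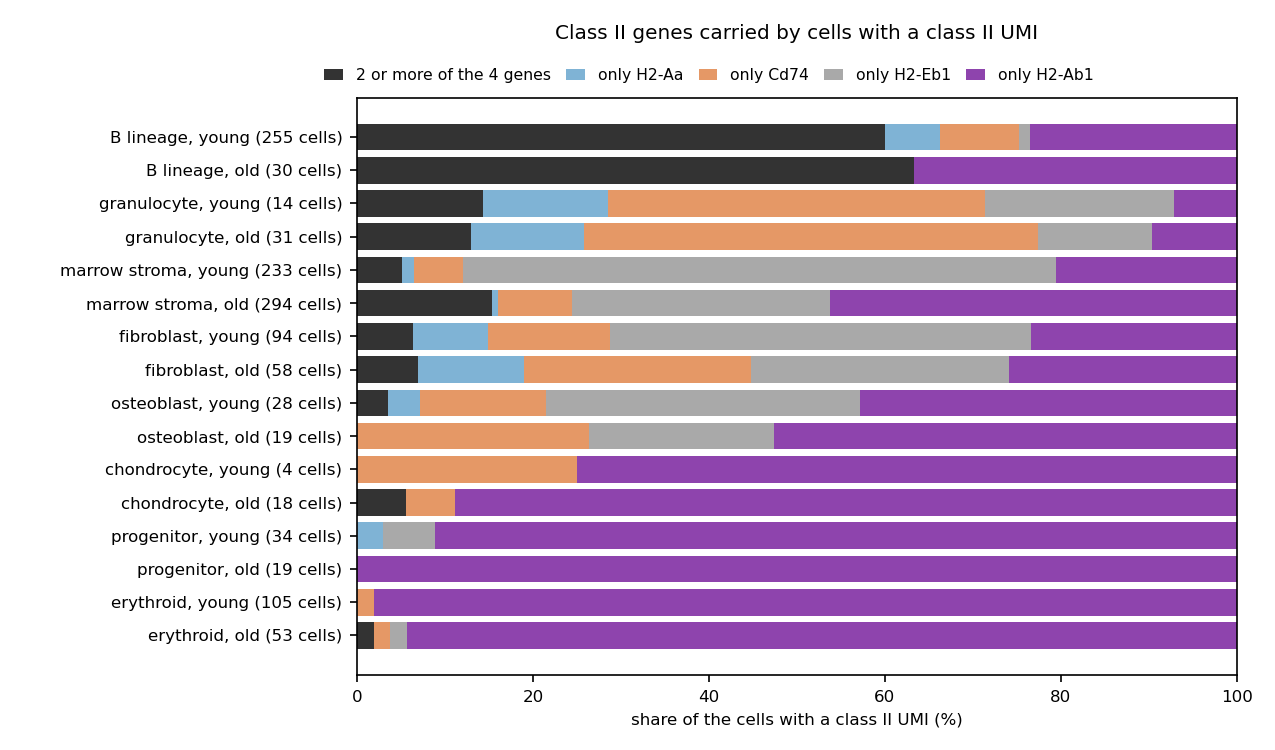
Share (%) of the cells with a class II UMI that carry at least 2 of H2-Aa, H2-Ab1, H2-Eb1 and Cd74 (black) or only 1 of them (colours), per group and mouse; cell numbers stand in the row names. Purple, H2-Ab1 alone, fills 98.1% and 94.3% of the erythroid bars, while grey, H2-Eb1 alone, is the widest part in young stroma with 157 of 233 cells.

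Stroma carried a low and mixed class II signal. H2-Eb1 gave 194 and 134 UMIs (10.8 and 8.19 CPM) and was higher than in the other mesenchymal groups by 3.40 (SE 0.34, adjusted p = 3.52e-05). Fibroblasts, the next highest of the mesenchymal groups compared, stood at 2.25 and 1.21 CPM, from 52 and 19 UMIs. Cd74 gave 35 and 64 UMIs, or 1.94 and 3.91 CPM (1.63, SE 0.37, adjusted p = 0.00495). The other mesenchymal groups compared stood at 0.56 to 0.95 CPM in the young mouse and at 0.64 to 1.18 in the old. In the young mouse 12 of the 35 stroma UMIs of Cd74 lay in 1 cell. H2-Ab1 gave 59 and 256 UMIs (1.29, SE 0.48, adjusted p = 0.0483), a call that was lost without the mouse block (adjusted p = 0.072), with DESeq2 (0.132) and in thinned cells (0.157). H2-Aa gave 15 and 21 UMIs and Ciita none in 2785 and 1793 cells. H2-Ab1 made up 79.7% (young) and 92.4% (old) of the H2-Ab1 and H2-Aa UMIs of stroma, against 61.2% and 53.0% in B lineage. The reservation on reads assigned to H2-Ab1 therefore holds for stroma as well. Of the positive stroma cells 157 of 233 in the young mouse carried H2-Eb1 alone, and in the old mouse 136 of 294 carried H2-Ab1 alone. At least 3 class II UMIs were held by 8 young and 40 old stroma cells (0.287% and 2.23%). A B-lineage marker was found in 3.00% and 1.70% of stroma cells with a class II UMI and in 2.59% and 1.27% of those without, and Ptprc, which encodes CD45, gave 44 and 4 UMIs in all stroma. Of 6 monocyte and macrophage markers, 6 and 4 had UMIs in stroma, with a sum of 3.11 and 2.81 CPM, and of 7 dendritic cell markers 3 and 3 did, with 11.9 and 10.6 CPM. Their part in the stroma signal was not tested.

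H2-Ab1 in old chondrocytes stood at 25.0 CPM, against 15.7 CPM in old stroma. It gave 39 UMIs in 84 old chondrocytes and 6 in 162 young ones, with 0 UMIs of H2-Aa in each, and 16 of the 18 positive old cells carried H2-Ab1 alone. The test against the other mesenchymal groups gave 2.46 (SE 0.63, adjusted p = 0.0234), and in thinned cells the call was lost (adjusted p = 0.659). The reservation on reads assigned to H2-Ab1 holds here too. All 7 B-lineage markers were at 0 in old chondrocytes, and Ptprc was at 0 in chondrocytes of both mice.

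Among the remaining blood groups, granulocytes had 3 class II genes higher than mesenchymal cells, where 19.8% of all genes were higher. Cd74 gave 17 and 21 UMIs (4.63, SE 0.45), H2-Eb1 8 and 14 (2.52, SE 0.48) and H2-Aa 16 and 11 (5.34, SE 0.53), and 13 of the 16 young H2-Aa UMIs lay in 1 cell. H2-Ab1 gave 9 and 5 UMIs and was not past the test. The B-lineage markers summed to 155 CPM in young granulocytes, with all 7 markers found, and to 0.794 CPM in old ones, with 1 found. Of the 6 monocyte and macrophage markers 3 and 4 were found, at 94.5 and 124 CPM. Their part in the granulocyte signal was not tested. In megakaryocytes a class II UMI was found in 2 of 65 and 3 of 42 cells, and none of the 4 tested class II genes was past the test.

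Old and young libraries were compared within each group by the ratio of CPM, with no test since there was 1 mouse of each age. Over groups and genes with at least 100 UMIs in both sums together there were 59 pairs, mesenchymal cells as a whole included, of which 4 were at least 1.5-fold higher in the old library, 3 lower and 52 neither. Of all genes, 6.79% passed that fold in mesenchymal cells (3.92% higher, 2.87% lower), 6.28% in stroma (3.88% and 2.4%), 5.77% in fibroblasts (3.65% and 2.11%), 9.6% in osteoblasts (2.79% and 6.81%), 13.7% in chondrocytes (7.89% and 5.8%) and 7.78% in tendon (3.81% and 3.96%). Among blood groups it was 11.6% in B lineage (3.42% and 8.16%), 15.5% in erythroid cells (5.81% and 9.69%), 11.7% in granulocytes (6.77% and 4.89%), 6.0% in megakaryocytes (3.43% and 2.57%) and 5.77% in progenitors (1.37% and 4.4%). Of the 49 class I pairs 47 were within 1.5-fold, as were most genes in each group. In thinned cells 15 pairs of both classes passed the fold in place of 7. In stroma the old to young ratio was 0.860 for H2-K1 (interval 0.849 to 0.871), 0.897 for H2-D1, 0.923 for B2m and 1.00 for Psmb8. Osteoblasts stood apart, with ratios of 1.48 for H2-K1, 1.53 for H2-D1 (1.48 to 1.58) and 1.40 for B2m but 0.928 for Psmb8. In the same osteoblast sums the 8 stroma markers stood at 542 CPM (young) and 378 CPM (old), and whether they share a source with the class I difference was not tested. The other class I pair past the fold was Psmb8 in erythroid cells, at 136 and 85.6 CPM.

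Class II pairs passed the fold in both directions. H2-Ab1 in stroma stood at 3.27 CPM (young) and 15.7 CPM (old), a ratio of 4.78 (3.59 to 6.46) or 2.26 on the log2 scale. After thinning the log2 ratio was 1.24, and the reservation on reads assigned to H2-Ab1 applies to this ratio too. H2-Eb1 in the same cells went the other way, with a ratio of 0.761 (0.606 to 0.954), but not at every depth. By depth of the cell, a split chosen after seeing the data, H2-Ab1 stood at 3.47, 3.49 and 2.27 CPM in young cells under 6000 UMIs, from 6000 to 12000, and above, and at 5.17, 16.1 and 17.8 CPM in old cells. The libraries thus differed clearly in the deeper ranges and less under 6000 UMIs, where old stroma gave 8 UMIs (2.23 to 10.2 CPM) and young stroma 21 (2.15 to 5.30 CPM). In the same ranges H2-Eb1 stood at 9.91, 12.7 and 6.80 CPM in young cells and at 4.53, 7.32 and 10.7 CPM in old cells, so it was not lower in the old library above 12000 UMIs. Over all mesenchymal cells H2-Ab1 was higher in the old library by 1.67 on the log2 scale (1.38 to 1.96) and Cd74 by 0.83 (0.36 to 1.30). In B lineage H2-Ab1 was lower in the old library, at −1.01 (−1.45 to −0.60), and in erythroid cells at −0.74 (−1.13 to −0.37). The lower B-lineage value was seen in early cells (194 CPM young, 104 CPM old) and in the other cells (319 and 206 CPM) alike.

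**Figure D5:**
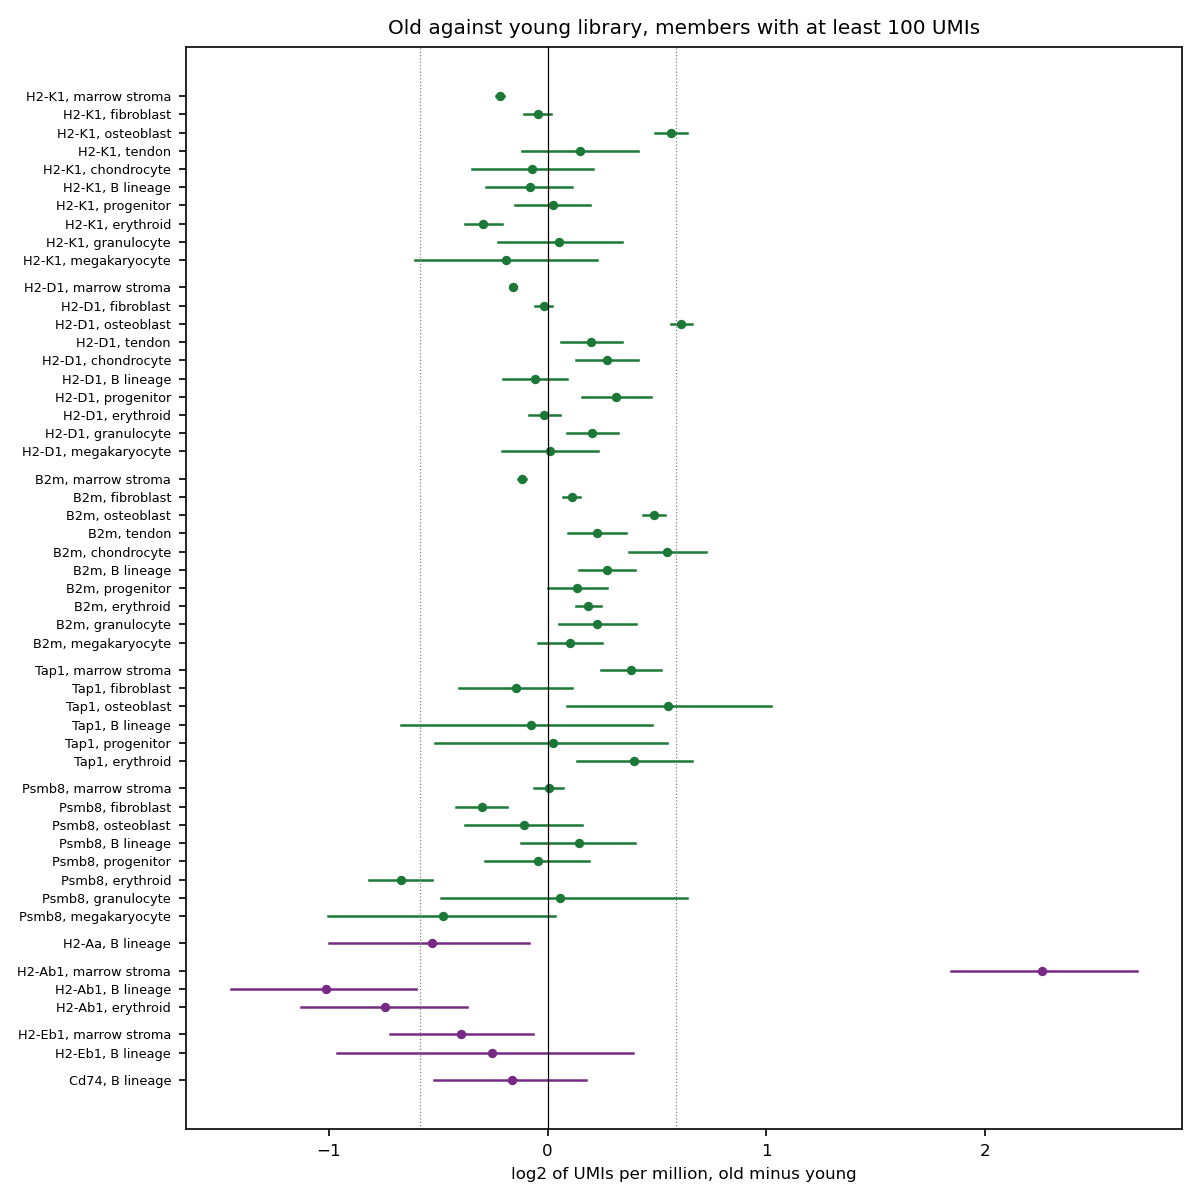
Log2 of CPM in the old minus the young library for each gene and group with at least 100 UMIs (mesenchymal subgroups and blood groups), with 95% counting intervals; green is class I, purple class II, dotted lines mark 1.5-fold. The class I points past a dotted line are H2-D1 in osteoblasts and Psmb8 in erythroid cells, and H2-Ab1 lies at 2.26 in stroma and −1.01 in B lineage.

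Across the 20 sums of group and mouse the genes moved in blocks, given as a description since the sums share 2 libraries. On log2(CPM + 5), Cd74 and H2-Aa correlated with r = 0.99 and H2-Eb1 and H2-Aa with 0.94, while H2-Ab1 and H2-Aa reached 0.74. Psmb8 and Tap1, neighbours on chromosome 17, correlated with 0.93, and H2-K1 correlated with B2m at 0.85 and with Psmb8 at 0.68. Of 11178 genes compared, those most like the mean of H2-K1, H2-D1 and B2m were BC028528 (0.94), Zeb2 (0.88), Eepd1 (0.86), Casp1 (0.86) and Angpt2 (0.85). Those most like the mean of the 4 class II chains were Vpreb3 (0.96), itself on the B-lineage marker list, Fcgr2b (0.94), Neil1 (0.94), Myl4 (0.93) and Rcsd1 (0.93).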

How the data were processed

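The data were single-cell mRNA libraries of 1 young and 1 old mouse; the CD24 antibody counts were not used. The authors deposited raw counts, as integer UMIs for each gene in each cell, made per the file headers with Cell Ranger 6.1.1; the submitters' processing notes name mm10, R 4.0.3 and Seurat 4.0. UMIs remove amplification copies, but free RNA in a droplet is counted with the cell. Positions and promoters came from RefSeq tables of GRCm38.p6, which is the assembly of mm10.

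Cells with at least 200 genes and at most 20% mitochondrial UMIs were kept, with 81076421 (young) and 66702846 (old) UMIs. A cell joined a blood group with at least 3 markers of its list, the mesenchymal cells with at least 5 of 10 generic markers, and a mesenchymal subgroup with at least 4 markers. Doublets called by Scrublet (scanpy 1.11.5, 2.67% and 1.02% of cells) were kept, and removed as an alternative. UMIs were summed per mouse and group of at least 20 cells in each mouse, and tested with edgeR 4.0.16 (R 4.3.3, TMM, filterByExpr, quasi-likelihood F test, two-sided) with the mouse as a block, since the sums of a mouse come from 1 animal. The tests rest on 2 mice, so the spread of a gene is largely borrowed from other genes. Tested on simulated data holding 200 genes with a log2 change of 2, they recovered 88% for B lineage (11966 genes) and 97% for marrow stroma (13922 genes). False calls numbered 3 and 12. The simulation used 1 fixed spread, changed only genes with ample UMIs and kept all other genes equal between groups. It therefore does not speak to genes of few UMIs. Shares have exact binomial intervals, sums exact Poisson intervals and ratios conditional binomial intervals at 95% (SciPy 1.17.1). Alternatives were DESeq2 1.42.0, no filter, no block, a 10% mitochondrial limit, 1 marker more, cells thinned to 2000 UMIs, at least 3 class II UMIs, other scalings, each mouse left out, and, added after seeing the data, a mesenchymal reference without marrow stroma and a split of stroma by depth. All 10 genes were named; of each further list those with the most UMIs and the largest difference past the test were named. The genes and lists were chosen with earlier results of these data known.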

Additional observations from a re-analysis of the deposited data

Results flagged for a closer look

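Cd74 was high in cells that no comparison used. In the 13 plasma cells of the old library it stood at 4153 CPM, with 1926 UMIs spread over all 13 cells and 0 UMIs of H2-Aa, and the young library held no plasma cell. In the 220 old cells that passed the minimum for mesenchyme and for another list it stood at 440 CPM, with 2667 UMIs in 15 cells and up to 462 in 1 cell, against 125 UMIs in 21 of the 251 young ones. H2-Ab1 was higher in the old than in the young library in marrow stroma, by 2.26 on the log2 scale, and lower in B lineage, at −1.01; with 1 mouse of each age this difference between the groups was not tested.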

How the results depend on the processing

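Blood groups gave 31 calls over the 10 genes, and 27 to 33 under the alternatives; mesenchymal subgroups gave 23, and 20 to 26 under all alternatives but thinning to 2000 UMIs, which left 15. Pairs of the same mouse were used as a block; with no replicate block there were 30 and 20 calls, and the lost calls were Cd74 in progenitors, H2-Ab1 in marrow stroma, B2m in osteoblasts and B2m in tendon. Thinning raised the age pairs past 1.5-fold from 7 to 15, and TMM or median-of-ratios scaling gave 10 and 9. The share of cells with a class II UMI moved under thinning from 72.4% to 58.3% (young) and 62.5% to 37.8% (old) in B lineage and from 8.37% to 3.20% and 16.4% to 3.94% in marrow stroma. With at least 3 class II UMIs it was 44.0% and 37.5% in B lineage and 0.287% and 2.23% in stroma.

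Directions reversed in 9 results. Without stroma in the reference, H2-K1 turned to 1.02 in B lineage, 0.16 in erythroid cells, 0.90 in granulocytes and 1.00 in progenitors, H2-D1 to 0.49 in B lineage, and B2m to 0.071 in erythroid cells and 0.72 in megakaryocytes. In thinned cells erythroid Tap1 turned to −0.33 and erythroid Psmb8 to −0.68; the cause was not tested. Psmb8 in granulocytes lost its call with no filter, 1 marker more and thinning. Leaving out either mouse leaves no replicate, so it gave values with no test, none with another sign. Depth limits class II outside B lineage, where most sums hold under 100 UMIs of a gene.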
